A study of Homo sapiens with 6 samples.

Results

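Mitochondrial ribosomal proteins are the family described here, taken as every gene of the authors' deposited table whose symbol is MRPL or MRPS followed by a number and at most 1 letter. The rule found 77 of 26364 genes, 48 with an MRPL symbol for the large subunit and 29 with an MRPS symbol for the small subunit. RNA came from REH cells, an established human line grown from a leukaemia of B-cell precursors. A lentiviral short hairpin against STAT3 was present in 3 libraries (shSTAT3), and a scramble hairpin in the other 3. Puromycin selection over 3 days and the removal of dead cells before RNA extraction were common to both groups. The replicates were independent experiments on a single cell line, and the labels name no second hairpin.

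The mitochondrial ribosome translates the few membrane proteins of the respiratory chain that mitochondrial DNA encodes. Its RNAs are transcribed in the organelle, but all of its proteins are encoded in the nucleus, made in the cytosol and imported. The large subunit joins amino acids and releases the new chain through an exit tunnel into the inner membrane, and the small subunit binds and decodes the messenger RNA. Some of the proteins have a bacterial counterpart, and others occur only in mitochondria. In leukaemia cells the mitochondrial ribosome is known as a drug target, because antibiotics against bacterial ribosomes can also act on it.

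Per gene, the authors' deposited table lists the normalized count averaged over all 6 libraries, then the log2 fold change with its raw and adjusted p-values. No value per library was analysed here, so the spread between libraries is not given. Each fold change has a standard error, worked out from it and its p-value, and whether single libraries overlap cannot be read. The means of all genes summed to 11485068 normalized counts. Fold changes are shSTAT3 over scramble, a direction that the file does not name and that was taken from STAT3, so its fall to 29.8% of scramble by the authors' deposited table is no independent check of the labels. Of 12 B-cell precursor markers 11 were tested, with means between 1289 and 20516 normalized counts, while VPREB1 was listed at 0. All 5 T-cell markers had a mean under 1. Of 7 myeloid markers 4 were tested, with 1 higher and 2 lower, and of 6 epithelial and fibroblast markers 2 were tested, both lower. The part of such cells in the results was not tested.

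All 77 genes were tested, and a gene is called here at the authors' adjusted p under 0.05. The family moved little, with 14 genes higher and 3 lower in shSTAT3 cells and 60 not called. That is 22.1% of the family called, against 44.5% of the 12061 tested genes (21.3% higher and 23.2% lower). Family genes were called higher in 18.2% of cases and lower in 3.90%. The median log2 fold change of the family was 0.02, next to 0.00 for all tested genes. Fold changes lay closer together than in the table as a whole, with an SD of 0.21 on the log2 scale over family genes and 0.47 over all tested genes.

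Standard errors were near those of other genes. The median standard error was 0.11 on the log2 scale for the family and 0.12 for the 10130 tested genes whose means lie in the family's range. For 70 of the 77 genes (90.9%) the 95% interval lay wholly within a 1.5-fold change in either direction, which held for 54.6% of those 10130 genes. A change of at least 1.5-fold was reached by MRPS25 alone in the family, and by 18.2% of the genes in that range of means.

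**Figure D1:**
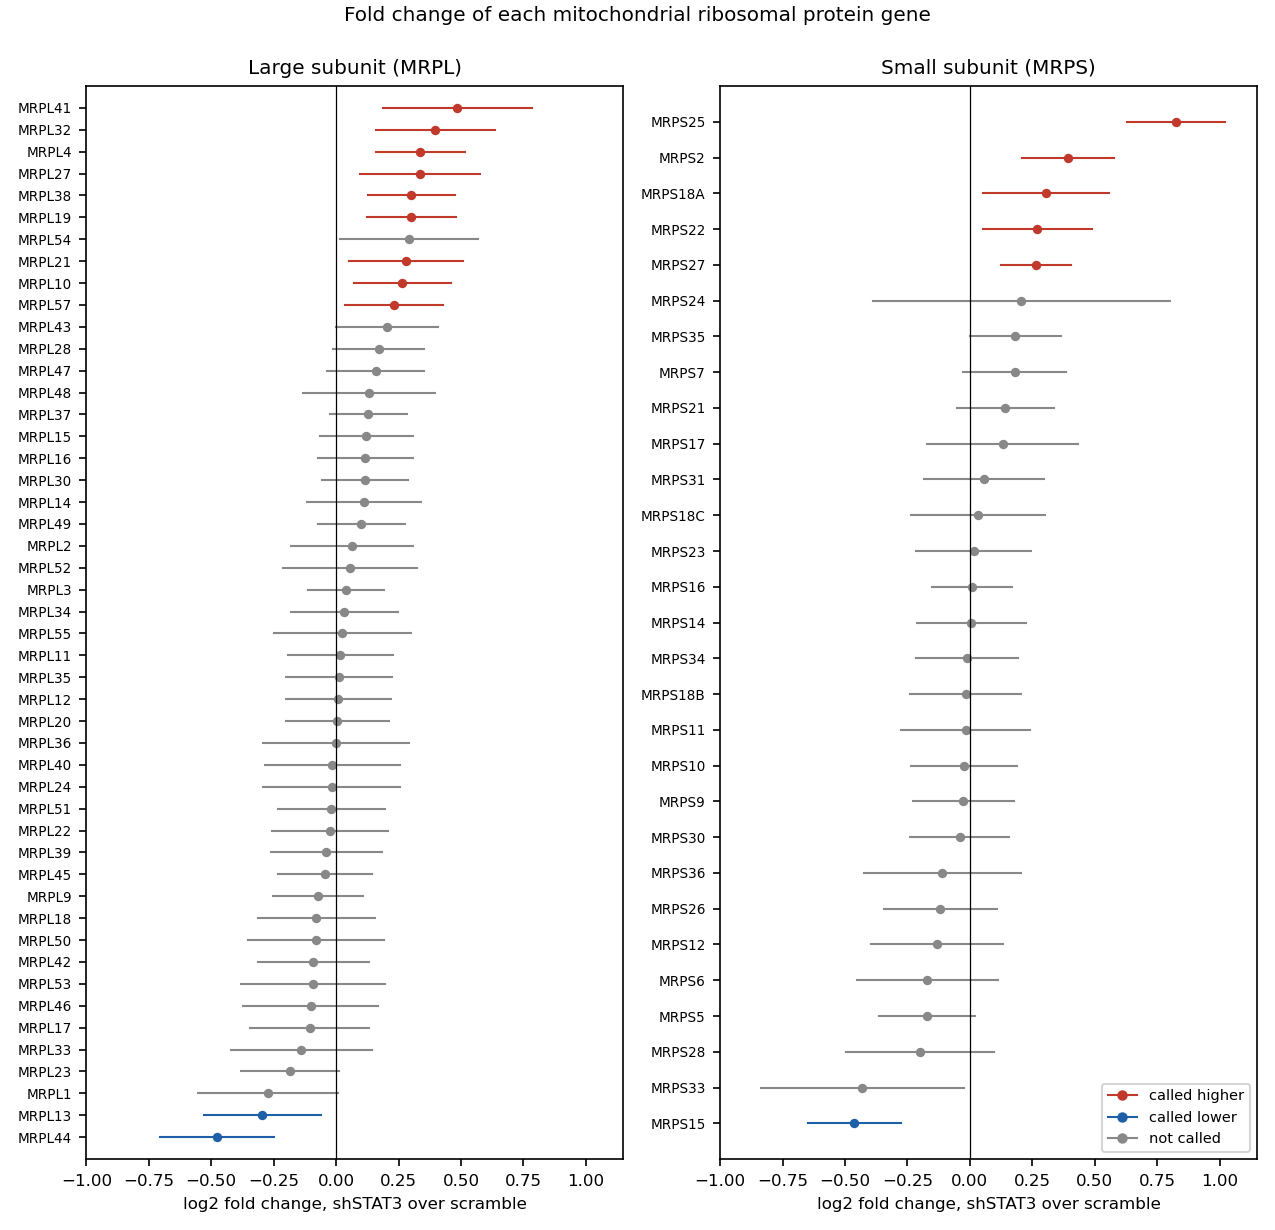
Log2 fold change, shSTAT3 over scramble, of each of the 77 genes, as a point with its 95% interval, large subunit on the left and small subunit on the right. Red genes were called higher (9 large, 5 small), blue genes lower (2 large, 1 small), and grey genes were not called; MRPS25 stands apart at 0.83.

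Both subunits had similar counts. In the large subunit 9 of 48 genes rose and 2 fell, so that 22.9% were called. In the small subunit 5 of 29 rose and 1 fell, or 20.7%. The median log2 fold change was 0.03 in the large subunit (quartiles −0.05 and 0.16) and 0.01 in the small subunit (quartiles −0.11 and 0.18). The large minus small difference of these medians was 0.02. With transcript length, GC content and mean fitted it was −0.0042, or 0.0064 where the longest principal transcript gave length and GC content, so its sign depends on that choice. Genes of a family share the same 6 libraries and are not replicates, so no test of subunit against subunit is given. Symbols do not always match the place in the ribosome, since structures put MRPS18A and MRPS30 in the large subunit and MRPS36 is now assigned to the alpha-ketoglutarate dehydrogenase complex. Grouped by place, 10 of 50 large subunit genes rose and 2 fell, and 4 of 26 small subunit genes rose and 1 fell.

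MRPS25, a mitochondria-specific protein of the small subunit, rose furthest, to 177% of scramble by the authors' deposited table (log2 change 0.83, 95% interval 0.63 to 1.02, adjusted p = 3.75e-15). Its gene spans chr3:15042460-15065335 (minus strand; GRCh38, GENCODE release 29), and it had a mean of 1058 normalized counts. By p-value it ranked 444 of all tested genes, and the next family gene, MRPS15, ranked 1790. Annotated exons of NR2C2 on the opposite strand cover 22.2% of MRPS25 exon bases, and the use of strand in counting is not given. NR2C2 itself was at −0.08 and was not called by the authors' deposited table (adjusted p = 0.568).

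The promoters of the gene that rose furthest and of the gene that fell furthest in each subunit, from 250 bases before to 50 bases after the annotated start, are shown here, to set their starts beside the motif counts given further on. Sequences are RefSeq's on GRCh38.p14, and capitals mark matches to the ETS, YY1 or NRF1 motif. MRPS25 (chr3:15065266-15065565, minus strand) rose, MRPS15 (chr1:36464335-36464634, minus strand) and MRPL44 (chr2:223957213-223957512, plus strand) fell, and none of the 3 holds a match.
MRPS25: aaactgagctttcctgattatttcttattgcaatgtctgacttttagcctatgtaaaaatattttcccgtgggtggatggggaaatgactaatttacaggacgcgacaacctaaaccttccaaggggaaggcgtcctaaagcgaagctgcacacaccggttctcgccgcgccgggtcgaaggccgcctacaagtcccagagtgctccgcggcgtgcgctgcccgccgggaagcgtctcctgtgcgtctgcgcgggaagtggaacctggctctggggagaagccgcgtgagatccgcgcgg
MRPS15: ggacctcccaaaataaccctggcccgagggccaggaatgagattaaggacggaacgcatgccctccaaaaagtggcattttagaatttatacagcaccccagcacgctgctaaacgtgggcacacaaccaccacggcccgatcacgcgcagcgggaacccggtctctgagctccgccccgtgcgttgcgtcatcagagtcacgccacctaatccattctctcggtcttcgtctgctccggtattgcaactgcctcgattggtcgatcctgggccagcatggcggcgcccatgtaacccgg
MRPL44: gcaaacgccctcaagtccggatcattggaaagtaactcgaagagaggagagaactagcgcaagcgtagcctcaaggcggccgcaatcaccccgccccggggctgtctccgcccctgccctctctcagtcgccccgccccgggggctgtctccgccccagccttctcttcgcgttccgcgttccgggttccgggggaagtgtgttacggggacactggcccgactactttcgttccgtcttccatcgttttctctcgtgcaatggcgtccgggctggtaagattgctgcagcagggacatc

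Other small subunit genes that rose did so by less. MRPS2, with a bacterial counterpart, rose to 131% of scramble by the authors' deposited table (log2 change 0.39, 95% interval 0.21 to 0.58, adjusted p = 0.000157). MRPS27, a mitochondria-specific RNA-binding protein with pentatricopeptide repeats, rose to 120% by the authors' deposited table (0.27, interval 0.13 to 0.41, adjusted p = 0.000767), and its mean of 2216 normalized counts was the highest of the family. MRPS18A and MRPS22, a mitochondria-specific protein, rose by 0.31 and 0.27 in log2 units by the authors' deposited table (adjusted p = 0.0416 and 0.0352).

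MRPS15, the counterpart of a bacterial protein that binds the small ribosomal RNA early in assembly, was the small subunit gene that fell. It stood at 72.5% of scramble by the authors' deposited table (log2 change −0.46, 95% interval −0.65 to −0.28, adjusted p = 7.03e-06). MRPS33 had nearly the same fold change, −0.43, but a mean of only 91.0 normalized counts and missed the threshold by the authors' deposited table (adjusted p = 0.0779). The remaining small subunit genes not called lay between −0.20 for MRPS28 and 0.21 for MRPS24 by the authors' deposited table. MRPS24 had a mean of 24.9 normalized counts, the lowest of the family. Exons of the read-through gene URGCP-MRPS24 on the same strand cover 606 bases of MRPS24, or 23.2% of all its annotated exon bases. The principal transcript of MRPS24 has only 707 bases. URGCP-MRPS24 had a mean of 0.318 by the authors' deposited table. Whether the handling of shared reads lowered the mean of MRPS24 was not tested.

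In the large subunit MRPL41, a mitochondria-specific protein, rose furthest, to 140% of scramble by the authors' deposited table (log2 change 0.49, 95% interval 0.19 to 0.78, adjusted p = 0.00478). MRPL32, whose maturation by the inner membrane m-AAA protease is known from yeast and mouse, rose to 132% by the authors' deposited table (0.40, interval 0.16 to 0.63, adjusted p = 0.00361). The next were MRPL4 and MRPL27, with bacterial counterparts, both at 0.34 by the authors' deposited table (adjusted p = 0.000913 and 0.0169). MRPL38, of the central protuberance that faces the small subunit, and MRPL19 were both at 0.30 by the authors' deposited table (adjusted p = 0.00249 and 0.00331). MRPL21, at 0.28, MRPL10, at 0.27, and MRPL57, at 0.23, also rose by the authors' deposited table, with adjusted p-values of 0.0379, 0.0183 and 0.0466.

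MRPL44, which has an RNase III-like fold and sits on the side of the large subunit where the new chain leaves, fell furthest of the family. It stood at 71.9% of scramble by the authors' deposited table (log2 change −0.48, 95% interval −0.71 to −0.25, adjusted p = 0.000205). An antisense gene, AC073641.1, covers 12.9% of its exon bases and has no value of its own. MRPL13, with a bacterial counterpart, fell to 81.4% by the authors' deposited table (−0.30, interval −0.53 to −0.06, adjusted p = 0.0327). MRPL1, of the L1 stalk past which spent transfer RNA leaves, had a similar −0.27 and was not called by the authors' deposited table (adjusted p = 0.109). On the other side of 0, MRPL54 was at 0.29 and was not called by the authors' deposited table (adjusted p = 0.0798). The smallest fold changes of the subunits were those of MRPL36 at 0.00 and MRPS14 at 0.01 by the authors' deposited table.

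Roles were then taken in turn. At the exit side MRPL44 fell, and the other 7 of 8 genes were not called. In the L7/L12 stalk and its base, which recruits translation factors, MRPL10 rose, while MRPL11, MRPL12, MRPL53 and MRPL54 were not called. MRPL12, the stalk protein itself, was at 0.01 by the authors' deposited table, with a 95% interval from −0.20 to 0.22. Of 8 central protuberance genes 2 rose, MRPL27 and MRPL38, and none fell. Among the other genes with a bacterial counterpart 4 of 18 rose and 1 fell, and among the other mitochondria-specific genes 2 of 8 rose. In the small subunit 1 of 16 genes with a bacterial counterpart rose and 1 fell, and 3 of 10 mitochondria-specific genes rose. Of all tested genes 21.3% were called higher and 23.2% lower. With groups this small, no difference between roles is read from these counts.

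**Figure D2:**
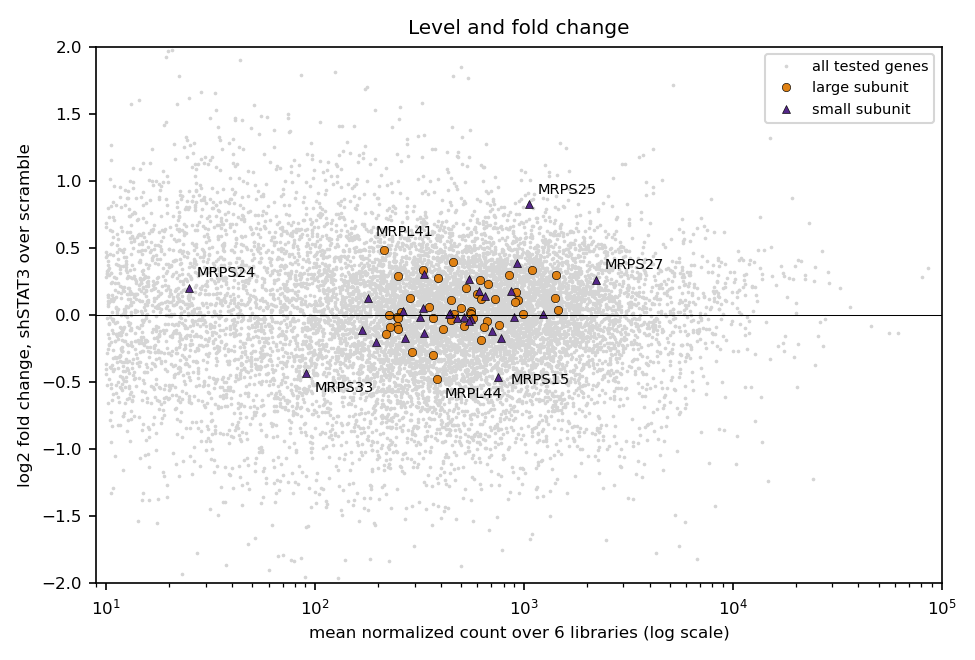
Log2 fold change (shSTAT3 over scramble) against the mean normalized count over 6 libraries on a log scale, for all tested genes in grey, large subunit genes as orange circles and small subunit genes as purple triangles. The family sits in a narrow band around 0 with MRPS25 above it; 14 tested genes with a log2 fold change beyond 2 in size lie outside the frame.

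Levels were compared per kilobase of the principal annotated transcript, as a description over all 6 libraries. MRPL12 had the highest level of the family, at 966 normalized counts per kilobase, followed by MRPL37 at 950, MRPS34 at 875, MRPL3 at 852 and MRPL23 at 848. None of these 5 genes was called. The lowest level was that of MRPS33, at 21.5 normalized counts per kilobase. The median was 407 per kilobase in the large subunit and 314 in the small subunit, with quartiles from 220 to 527 and from 206 to 467. Levels in the subunits thus overlapped widely. Where several principal transcripts tie, the tie-break was changed after levels and fold changes had been seen; it altered the length of 5 of 77 genes, and with the first rule, the longest transcript, MRPL28 stood at 535 in place of 832 per kilobase. Annotated transcript lengths from 518 to 15582 bases, the longest for MRPL42, go into these levels, so a gene used mainly in a shorter form is set too low. All 77 genes together took 0.382% of all normalized counts.

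Fold changes in the large subunit were somewhat higher for transcripts richer in GC, with a Spearman correlation of 0.35 across 48 genes. Across 29 small subunit genes it was 0.01, and across 11393 tested genes 0.18. The points share the same libraries, and the part of base composition was not tested. With length, GC content and mean fitted over all tested genes, the median log2 fold change was 0.08 in both subunits (0.09 in the large subunit with the longest transcript), next to 0.03 for all genes in the fit.

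Family genes lie on 21 chromosomes, and many start head to head with another protein-coding gene. Within 1000 bases upstream on the opposite strand, 17 of 77 family genes (22.1%) had such a neighbour, as did 10.2% of 10831 tested protein-coding genes. MRPL46 and MRPS11 are each other's neighbour, 34 bases apart, and neither was called. Of 14 pairs with a tested neighbour, 5 held a called neighbour (35.7%, below the 44.5% of all tested genes), and these 5 pairs were chosen for description after their values were seen. Only starts upstream of the family gene were counted, so pairs whose starts overlap are left out of all these shares.

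MRPL27 starts 6 bases from EME1, a nuclease subunit of homologous recombination, and the pair moved in opposite directions. MRPL27 was at 0.34 and EME1 at −0.93 by the authors' deposited table (adjusted p = 0.0169 and 4.25e-07). MRPL57 and the kinetochore gene SKA3, 43 bases apart, were likewise called in opposite directions, at 0.23 and −0.47 by the authors' deposited table (adjusted p = 0.0466 and 0.000106). MRPL41 and PNPLA7, a phospholipase gene 665 bases away, both rose, by 0.49 and 1.58 in log2 units by the authors' deposited table. Distances run between the outermost GENCODE gene bounds, while the promoters use RefSeq starts. The MRPL41 gene begins at chr9:137551199, but its promoter window is chr9:137551629-137551928, so the distance of this pair depends on the start used. MRPL52 and MRPS34 were not called (0.06 and −0.01), while their neighbours SLC7A7, an amino acid transporter, and EME2 rose by 0.82 and 0.65 by the authors' deposited table. The difference within a pair was not tested, because it needs values per library.

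**Figure D3:**
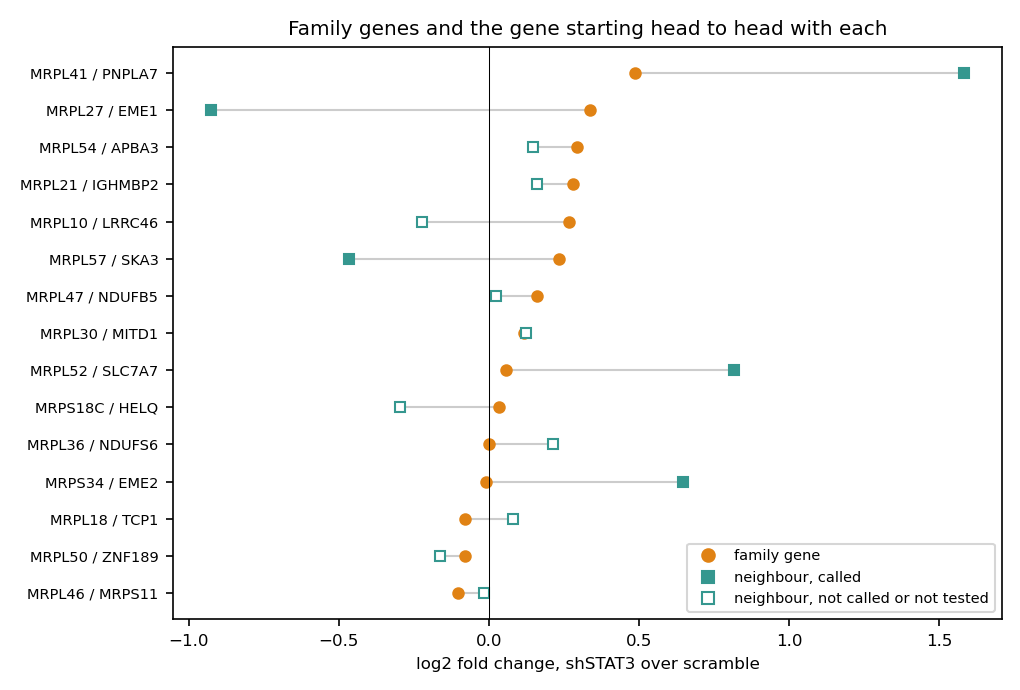
Log2 fold change (shSTAT3 over scramble) of family genes (orange circles) and of the gene that starts head to head with each (green squares, filled where called), for the 15 pairs with a value for both. EME1 and SKA3 lie below 0 opposite MRPL27 and MRPL57 above 0, and PNPLA7 lies furthest to the right at 1.58.

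Genes may also share bases with a neighbour on either strand. The exons of 34 family genes overlap those of another annotated gene over more than 5% of their bases, 7 of the 17 called genes among them. NCAPD2, a condensin gene that covers 31.3% of MRPL51 exon bases, fell by 0.84 by the authors' deposited table, while MRPL51 was at −0.02 and was not called. Pseudogenes named after a family gene are annotated for 34 of the 77 genes, 4 of them called, and MRPL57 has 5. Of the whole family 22.1% were called, and of all tested genes 44.5%. Neither feature was counted over all tested genes, so no link with the calls is read. Counts of family genes with such overlaps or pseudogenes depend on how shared reads were assigned.

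Promoters of 68 family genes were found in the RefSeq table. The ETS motif CCGGAAG stood on either strand in 41.2% of them, against 20.3% of 9059 tested genes and 10.7% of all 27305 promoters. AAGATGGCG, the YY1 motif, stood in 19.1% of family promoters, 4.31% of tested genes and 1.85% of all promoters. The part GCATGCGC of the NRF1 motif was found in 8.82%, 5.94% and 3.27% of these sets. The E-box CACGTG was present in 8.82%, 10.2% and 7.43%, and the STAT motif TTCNNNGAA in 10.3%, 6.36% and 7.88%. A match is a description of letters, neither a site nor a cause.

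ETS and YY1 shares were similar in the subunits. ETS matches stood in 39.0% of 41 large and 44.4% of 27 small subunit promoters, and YY1 matches in 19.5% and 18.5%. Of 28 genes with an ETS match 4 rose and none fell, and of 40 without it 8 rose and 2 fell. Of all tested genes, 21.3% were called higher and 23.2% lower. ETS matches stood in 33.3% of 12 promoters of family genes that rose and in 44.4% of 54 not called. A link between motif and fold change was not tested. The promoters of MRPL27 (chr17:50373135-50373434, minus strand) and MRPS18A (chr6:43687742-43688041, minus strand), genes that rose, show how these matches sit close to the start.
MRPL27: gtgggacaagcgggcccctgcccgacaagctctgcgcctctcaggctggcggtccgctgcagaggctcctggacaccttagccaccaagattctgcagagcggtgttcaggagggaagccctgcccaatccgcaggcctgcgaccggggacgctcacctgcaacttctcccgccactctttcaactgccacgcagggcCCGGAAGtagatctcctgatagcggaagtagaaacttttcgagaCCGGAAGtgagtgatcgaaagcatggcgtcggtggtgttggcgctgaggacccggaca
MRPS18A: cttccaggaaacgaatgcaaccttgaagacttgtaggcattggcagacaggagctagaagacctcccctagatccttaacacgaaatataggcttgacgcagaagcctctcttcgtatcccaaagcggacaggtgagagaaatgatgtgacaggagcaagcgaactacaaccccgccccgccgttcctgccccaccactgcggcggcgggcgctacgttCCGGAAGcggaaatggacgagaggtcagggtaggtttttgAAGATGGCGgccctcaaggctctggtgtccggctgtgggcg
In MRPL27 the ETS motif occurs at 52 and again at 8 bases before the start. In MRPS18A it occurs 31 bases before the start, the YY1 motif begins at base 10 after it, and a STAT match, not in capitals, lies 249 bases before it.

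**Figure D4:**
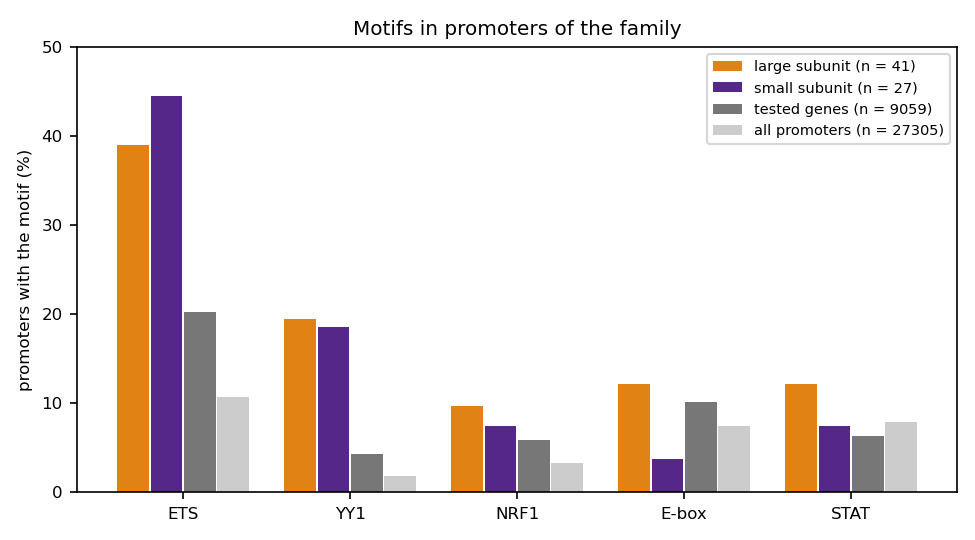
Share of promoters, in percent, that hold each motif on either strand, for 41 large subunit genes, 27 small subunit genes, 9059 tested genes and all 27305 promoters. ETS and YY1 bars are higher in both subunits than in the other sets, and the STAT bar is higher than in the other sets for the large subunit alone.

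Mitoribosomal proteins with other symbols gave a like result. Of 6 such genes 1 rose (16.7% called, against 44.5% of all tested genes) and 5 were not called. DAP3, a GTP-binding protein of the small subunit, rose to 137% of scramble by the authors' deposited table (log2 change 0.45, adjusted p = 6.26e-07). The small subunit genes PTCD3, CHCHD1 and AURKAIP1 were at −0.16, −0.11 and 0.05, and the large subunit genes ICT1, a peptidyl-tRNA hydrolase, and GADD45GIP1 at −0.10 and 0.05 by the authors' deposited table. Their adjusted p-values ran from 0.140 to 0.727 by the authors' deposited table.

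Genes for the machinery around the ribosome were called in both directions. Of 29 tested assembly factors 7 rose and 2 fell (31.0% called, against 44.5% of all tested genes, median log2 fold change 0.14). The GTPase gene MTG1 and MTERF4, which brings a methyltransferase to the large subunit, rose by 0.59 and 0.47 in log2 units by the authors' deposited table (adjusted p = 1.12e-06 and 7.15e-05). C1QBP rose by 0.29 and the RNA granule protein gene GRSF1 was at −0.36 by the authors' deposited table (adjusted p = 0.000408 and 5.39e-06). Among 21 translation factors 3 rose and 3 fell (28.6% called). The elongation factor gene GFM1, the translation factor gene GFM2 and the membrane insertase gene OXA1L rose by 0.41, 0.32 and 0.30 by the authors' deposited table. The elongation factor gene GUF1 was at −0.50 by the authors' deposited table (adjusted p between 3.91e-05 and 0.00063 for all of these genes).

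Mitochondrial tRNA synthetases and related amidotransferase genes included 8 of 20 that rose and 3 that fell (55% called, against 44.5% of all tested genes). IARS2, for isoleucine, was at −0.48 by the authors' deposited table (adjusted p = 1.03e-08). The amidotransferase subunit gene GATC and EARS2, for glutamate, rose by 0.59 and 0.51 in log2 units by the authors' deposited table (adjusted p = 6.47e-10 and 9.68e-06).

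Genes of mitochondrial DNA expression and its nuclear regulators were called in 66.7% of 24 cases, 11 higher and 5 lower, against 44.5% of all tested genes. The coactivator genes PPRC1 and PPARGC1B rose by 0.62 and 0.70, the helicase gene C10orf2 by 0.66 and the nuclear receptor gene ESRRA by 0.60 in log2 units by the authors' deposited table (adjusted p between 8.67e-10 and 3.18e-06). The list also holds genes for factors that bind the ETS, NRF1 and YY1 motifs, and these 4, named after their values were seen, fell; other ETS factors were not looked at. GABPB1 and GABPA, which together form an ETS factor, were at −0.44 and −0.34, NRF1 at −0.30 and YY1 at −0.22 by the authors' deposited table (adjusted p = 0.000222, 0.00858, 0.0379 and 0.0168).

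Nuclear-encoded respiratory chain subunits stood near the family, with 17 of 75 higher and 5 lower and a median log2 fold change of 0.07. That is 29.3% called, against 44.5% of all tested genes. ATP5C1, SDHD and ATP5J were at −0.99, −0.74 and −0.47 and COX7C at 0.86 by the authors' deposited table (adjusted p between 4e-41 and 1.02e-06). Cytosolic ribosomal proteins, here with their paralogues, had 55 of 79 tested genes higher and 5 lower, or 75.9% called; the difference from the mitochondrial family was not tested. Their median log2 fold change was 0.27, against 0.02 in the mitochondrial family. The median mean of the cytosolic genes was 8552 normalized counts, above the family's 518, and their median standard error was 0.07 on the log2 scale, against 0.11. The fold change was under 1.2-fold in either direction for 75.3% of mitochondrial and 39.2% of cytosolic genes, called or not.

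**Figure D5:**
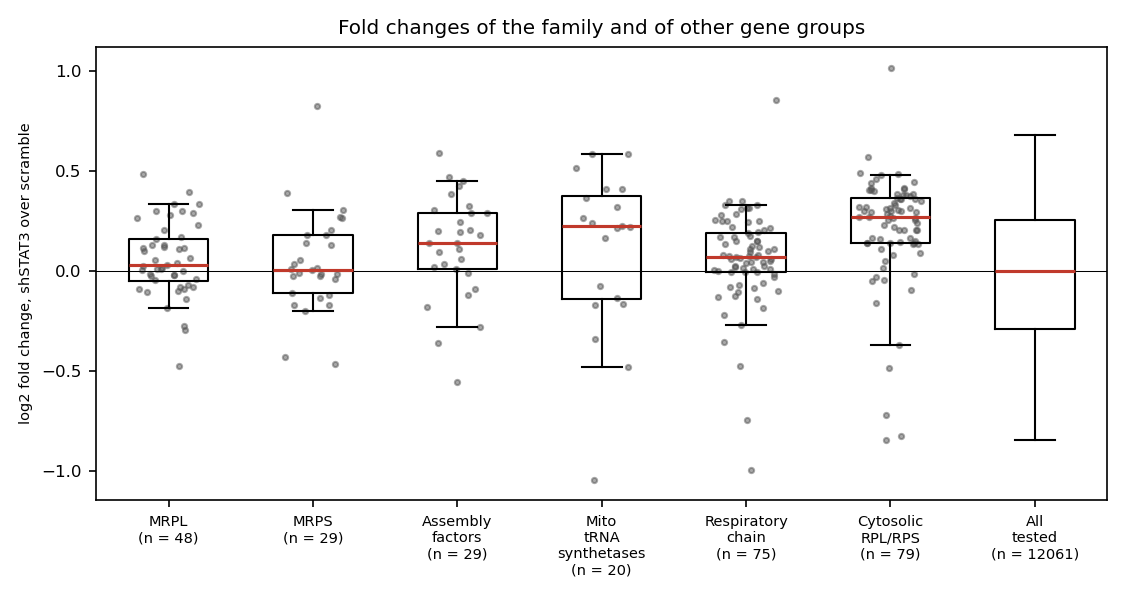
Log2 fold change (shSTAT3 over scramble) of large (MRPL) and small (MRPS) subunit genes, 4 other gene groups and all tested genes. Boxes span the quartiles with the median in red, whiskers run from the 5th to the 95th percentile, and points are genes (not drawn for all tested genes); medians are 0.03 and 0.01 in the subunits and 0.27 in cytosolic ribosomal proteins.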

How the data were processed

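Total RNA of 3 shSTAT3 and 3 scramble cultures went into TruSeq RNA v2 libraries, per the labels' protocols. According to the submitters' processing notes the tools were DESeq2, featureCounts, Picard, Bowtie2, Trimmomatic and bcl2fastq 2.19, on hg38. Their order, settings, annotation and strand use were not stated. Per the file headers, the authors' values are a baseMean, taken as the signal in normalized counts over all 6 libraries, a log2 fold change, and raw and adjusted p-values. No counts were analysed here, so the authors' adjusted p replaced the planned edgeR fit. P-values rest on the spread between cultures of 1 line.

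Members, lists and motifs were chosen with earlier results of these data known. The sizes of change, the background over the family's range of means, and the promoters and neighbour pairs shown were chosen after the values were seen. Any family gene may be named; full statistics go to the called genes with the highest and lowest fold changes, the smallest adjusted p in a role group or list (up to 4 genes), the 5 highest levels and the smallest fold change of each subunit. A gene of these lists that the rule names is not reported here. A call is an adjusted p under 0.05 over the 12061 genes with one, whose lowest mean is 10.0. A standard error is the fold change over the normal quantile for its p-value. The deposited fold changes are taken as shrunken toward 0, so errors and 95% intervals hold on that scale. They also assume that each p-value was computed from the same shrunken fold change, which is not stated.

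Positions, lengths and GC content came from GENCODE release 29 (GRCh38, the same assembly as hg38) and covered 94.5% of tested genes and all 77 members. The transcript was that of the best APPRIS rank. Ties first went to the longest transcript and, after levels and fold changes had been seen, were given to the best support level and then the lowest transcript number; both are reported. Promoters were matched by symbol. The Benjamini-Hochberg and regression steps were tested on simulated data. Software was Python 3.11.15 with matplotlib 3.10.9, scipy 1.17.1, pandas 2.3.3 and numpy 2.4.6.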

Additional observations from a re-analysis of the deposited data

How the results depend on the processing

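At an adjusted p under 0.01, 8 family genes rose in place of 14 (5 large and 3 small subunit genes) and 1 large subunit gene fell in place of 2. At 0.1, 2 small subunit genes fell in place of 1. With no filter on means, 10 family genes rose in place of 14. Of these, 7 were large subunit genes in place of 9, and 3 were small subunit genes in place of 5. The remaining counts stayed within 1.5 times under these settings, means of at least 50 or 100, subunits by place and a 1.2-fold minimum. The 2 genes with means under 100 were not called, so the filters on means could remove no called gene. Calls were not remade after centring or after a fit on length, GC content and mean. Counts could not change there, and only medians are compared. No replicate spread was at hand for the subunit medians, so each that moved at 2 decimals is given. The small subunit median, 0.0065, was −0.0024 at a mean of at least 50, where the large minus small difference was 0.0307, and 0.0039 after centring. In the fit, the large minus small difference of medians was −0.0042 (medians 0.0773 and 0.0816), against 0.0218 unfitted. With the longest transcript, the tie-break used first and replaced after values had been seen, it was 0.0064 (0.0889 and 0.0825), and the median level was 360 in place of 373 normalized counts per kilobase.

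No paired analysis was possible because the table holds no values per library, and no replicate was left out for the same reason. MRPS24 and MRPS33 have means under 100, and their 95% intervals reach beyond a 1.5-fold change.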

Other observations

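Pseudogenes named after family genes are listed in the authors' deposited table too. MRPS31P5 had a mean of 108 normalized counts and was at 0.45 by the authors' deposited table (adjusted p = 0.0527), next to 0.06 for MRPS31. MRPL45P2 had a mean of 31.3 and was at 0.45 by the authors' deposited table (adjusted p = 0.197), next to −0.04 for MRPL45. Neither pseudogene was called, and the difference from the parent gene was not tested.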
